A study of Mus musculus with 52 samples.

Results

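Aggregates of mouse totipotent-like cells held in the full 4C-64C medium at stage S3 were set against aggregates of the same stage that each went without 1 of 4 agents. A gene was kept when both S3 libraries lay above, or both lay below, all 8 omission libraries in CPM (counts scaled to library size with TMM factors). The rule kept 2976 of the 25056 genes tested, or 11.9%, of which 1652 were higher in the full medium (6.59%) and 1324 were lower (5.28%). A further 114 genes had 1 S3 library above and the other below all 8 and were not kept. The whole table has 55291 genes and 52 libraries, and every group has n = 2 libraries.

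All cells came from 1 line, mc6-1/Mu-mClover3-10#, labelled WT. S3 aggregates had been S2 aggregates and spent 1 day in 4C-64C medium, and S2 aggregates had been S1 cells that spent 1 day in the same medium. The omission groups went through that day without 8Br-cAMP, without Birabresib, without CHIR-99021 or without CD1530 in that medium. What an S3 omission group received on the day before is given only as its having been S2 aggregates. Nothing states that a pair of libraries stems from different cultures, so p-values measure the spread between these libraries, which may be technical.

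The 4 agents act on different pathways. 8Br-cAMP is a cell-permeable form of cyclic AMP, which activates protein kinase A and, through it, the transcription factor CREB. Birabresib blocks the bromodomains of BET proteins, which read acetylated histones at active genes. CHIR-99021 inhibits the kinase GSK3, which stabilises beta-catenin and switches on Wnt target genes. CD1530 activates the retinoic acid receptor RAR-gamma, which binds DNA together with RXR at paired sites. A gene that the rule kept is one for which both libraries of the complete medium lay outside all 8 libraries of the media lacking an agent.

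S3 libraries held 42.9 and 44.2 M counts and omission libraries from 34.8 to 57.9 M. Log2 CPM of the S3 pair correlated with r = 0.985 over genes, and S3 with omission libraries with r from 0.970 to 0.980. The aggregates kept the pluripotency factors: Pou5f1 stood at 252 and 241 CPM in S3 and 95.2 to 406 CPM in the omissions, and Nanog at 428 and 392 CPM in S3 and 222 to 764 CPM in the omissions. The 2-cell marker Zfp352 had 0.533 and 0.313 CPM in S3 and 0.112 to 3.84 CPM in the omissions. Both S3 libraries stood apart from the other 50 in 1 measure: 0.903% and 0.775% of their counts lay on mitochondrially encoded genes, against 1.58% to 3.43% elsewhere. The first library without Birabresib lay closest to S3 for 534 of the 1324 lower genes (40.3%) and 350 of the 1652 higher genes (21.2%). Both libraries of the full S3 medium share the low mitochondrial share, so library and medium cannot be told apart for it, and its part in the results below was not tested.

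Over the whole table, 664 genes (2.65%) differed between S3 and the mean of the 4 omission groups at a Benjamini-Hochberg adjusted p below 0.05 (edgeR quasi-likelihood test) and a log2 fold change of at least 1. Of these 320 were higher in S3 (1.28%) and 344 were lower (1.37%). The count was 376 without the second S3 library and 504 without the first. It was 1083, with 696 higher and 387 lower, when the Birabresib omission was left out of the mean. Against single omissions S3 was higher at 951 genes (3.8%) and lower at 709 (2.83%) when 8Br-cAMP was left out, in all 6.63%. It was higher at 115 (0.459%) and lower at 1441 (5.75%) when Birabresib was left out, in all 6.21%. For CHIR-99021 it was higher at 1030 (4.11%) and lower at 1264 (5.04%), in all 9.16%, and for CD1530 higher at 957 (3.82%) and lower at 493 (1.97%), in all 5.79%. These 4 comparisons share the same S3 libraries.

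Among the kept genes 103 of 1652 higher and 195 of 1324 lower genes were past that threshold against the mean of the omissions, and 4 higher and 40 lower genes were past it against each of the 4 omissions. The threshold includes an adjusted p from the same libraries that the rule used. These counts, and the S3 values, fold changes and SEs of kept genes, are therefore a description and not a test of them. Over all tested genes 1.28% were past the threshold against the mean as higher and 1.37% as lower. Of the higher genes 1371 were past the threshold against no single omission, and of the lower genes 916. Kept genes were more frequent at higher levels: of 9743 tested genes with at least 10 CPM, 1128 were kept as higher and 919 as lower. Shares over all genes, given beside the lists below, are thus low for lists of well expressed genes. The median log2 fold change of S3 over the mean of the omissions was 0.44 for the higher and -0.53 for the lower genes, against 0.012 over all tested genes. The same rule applied to each omission against the 8 remaining S3-stage libraries kept 4429 genes without 8Br-cAMP, 5150 without Birabresib, 5170 without CHIR-99021 and 3485 without CD1530, each more than the 2976 for the full medium.

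At the edge of the rule Retreg3 had 100.0 and 102 CPM in S3 and at most 100.0 CPM in the omissions, and Acss1 had 28.5 and 30.1 CPM in S3 and at most 28.5 CPM. Rtraf, just inside on the low side, had 116 and 101 CPM in S3 and at least 116 CPM in the omissions. Just outside stood 0610012D04Rik, 1600025M17Rik and 1700001F09Rik, with no count in S3 and none in at least 1 omission library. The groups are thus separated by a small margin at many kept genes, and 192 of them had a gap of at least 0.5 on the log2 scale between the nearest libraries.

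Cyp1a1, a cytochrome P450 enzyme and textbook target of the aryl hydrocarbon receptor (AHR), had 88.8 and 82.7 CPM in S3, against 57.2 and 64.8 CPM without 8Br-cAMP, 36.6 and 32.3 CPM without Birabresib, 8.08 and 7.96 CPM without CHIR-99021 and 15.8 and 18.4 CPM without CD1530. Both S3 libraries were above every omission, the library group without 8Br-cAMP came nearest, and the group without CHIR-99021 was lowest. The log2 fold change over the mean of the omissions was 1.89 ± 0.17 (SE). Gstp2, a glutathione S-transferase, had 106 and 104 CPM in S3, against 12.8 and 15.3 CPM without 8Br-cAMP, 87.2 and 76.0 CPM without Birabresib, 46.5 and 46.9 CPM without CHIR-99021 and 49.5 and 49.3 CPM without CD1530. Its lowest group was the one without 8Br-cAMP. Its neighbour Gstp1 had 174 and 197 CPM in S3 and 41.2 to 128 CPM in the 8 omission libraries, but the pair are close paralogs, and counting could have split reads between them. Ptgr1, a reductase of prostaglandins and leukotrienes, had 242 and 227 CPM in S3 and 225 and 211 CPM without Birabresib, with 52.2 to 225 CPM over all omissions. With the 8Br-cAMP omission left out, the log2 fold changes fell under the threshold, to 0.87 for Gstp2, 0.70 for Gstp1 and 0.87 for Ptgr1.

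The other genes of the AHR response named here, chosen after values were seen, were not kept by the rule. Their log2 fold changes over the mean of the omissions were -0.40 for Cyp1b1, -0.17 for Tiparp, -0.059 for Nqo1 and 0.60 for Ahrr. Whether AHR had a part in these values was not tested. Cyp1b1 had 16.8 and 15.7 CPM in S3, inside the 11.3 to 37.8 CPM of the omissions. Tiparp, with 52.0 and 50.1 CPM, and Nqo1, with 56.0 and 55.7 CPM, also lay inside their omission ranges of 41.3 to 77.5 and 28.0 to 93.3 CPM. Ahrr, the AHR repressor, had 2.46 and 1.52 CPM in S3 and 0.671 to 2.74 CPM in the omissions.

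The promoters of Cyp1a1, Stra8, Gstp1, Elf3 and Aqp3 were searched for DNA motifs of regulators that the agents or textbook knowledge name, and those of Cyp1a1 and Stra8 are shown. All are RefSeq windows of build GRCm38.p6, from 250 bases before to 50 bases after the gene start, with matches in capitals. Searched on both strands were AGGTCA (a nuclear receptor core site), GCGTG (the AHR core site), TGACGTCA (the CREB site) and ATCAAAG (a TCF/LEF site). None of these overlaps another in the windows shown.
Cyp1a1, chr9:57697363-57697662, plus strand: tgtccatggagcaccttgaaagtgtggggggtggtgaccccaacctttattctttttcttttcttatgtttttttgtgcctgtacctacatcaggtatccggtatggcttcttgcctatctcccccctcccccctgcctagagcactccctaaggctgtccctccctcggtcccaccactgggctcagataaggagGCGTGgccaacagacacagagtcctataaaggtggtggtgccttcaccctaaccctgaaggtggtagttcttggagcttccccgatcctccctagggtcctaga
Stra8, chr6:34920698-34920997, plus strand: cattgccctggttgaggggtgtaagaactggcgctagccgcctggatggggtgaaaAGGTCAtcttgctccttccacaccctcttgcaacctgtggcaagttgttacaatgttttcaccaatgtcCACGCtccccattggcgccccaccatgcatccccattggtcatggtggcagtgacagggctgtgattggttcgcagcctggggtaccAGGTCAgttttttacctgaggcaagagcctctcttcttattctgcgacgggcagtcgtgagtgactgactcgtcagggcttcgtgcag
The Cyp1a1 window holds 1 AHR core site at bases 197-201, and the Stra8 window holds 2 nuclear receptor core sites at bases 57-62 and 213-218 and 1 AHR core site on the minus strand at bases 126-130. The Gstp1 window, not printed, holds 1 AHR core site, and the Elf3 and Aqp3 windows hold none of the 4 motifs. Such matches are common. An AHR core site was found in 57.6% of 878 windows of higher genes with at least 10 CPM, 54.3% of 750 windows of lower genes and 55.0% of 7773 windows of tested genes at that level. The nuclear receptor site was found in 11.2%, 12.0% and 11.3% of these windows, the CREB site in 5.13%, 3.73% and 3.67%, and the TCF/LEF site in 1.82%, 2.53% and 2.33%. Over all 27025 promoters the shares were 32.5% for the AHR core, 16.0% for the nuclear receptor site, 1.88% for the CREB site and 3.72% for the TCF/LEF site.

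Elf3, an ETS transcription factor of epithelia, had 411 and 435 CPM in S3, against 87.8 and 95.8 CPM without 8Br-cAMP, 382 and 352 CPM without Birabresib, 152 and 144 CPM without CHIR-99021 and 103 and 111 CPM without CD1530. It was near S3 in the absence of Birabresib and low in each of the other 3 omissions. Aqp3, a water and glycerol channel that the trophectoderm uses in cavity formation, had 312 and 294 CPM in S3, against 37.0 and 43.0 CPM without 8Br-cAMP, 234 and 217 CPM without Birabresib, 246 and 224 CPM without CHIR-99021 and 37.6 and 44.5 CPM without CD1530. The groups without 8Br-cAMP and without CD1530 were low, and the other 2 were close to each other below S3. Sdc4, a heparan sulfate proteoglycan of focal adhesions, had 509 and 505 CPM in S3 and 126 to 439.5 CPM in the omissions, with the 8Br-cAMP and CHIR-99021 omissions at the low end. Its log2 fold change over the mean was 1.13, and 0.83 without the 8Br-cAMP or 0.91 without the CHIR-99021 omission. Of 24 apical junction and polarity genes none was kept as higher and 2 as lower, and of 27 trophectoderm genes Aqp3 alone was kept as higher and none as lower, beside 6.59% and 5.28% of all genes.

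Stra8, the retinoic acid target that opens meiosis in germ cells and whose promoter is printed above, had 591 and 565 CPM in S3, against 452 and 448 CPM without 8Br-cAMP, 519 and 534 CPM without Birabresib, 362 and 366 CPM without CHIR-99021 and 33.7 and 33.0 CPM without CD1530. The groups did not overlap, although 1.32 on the log2 scale for the mean came mostly from the CD1530 omission: with that group left out the value was 0.39. Stag3 and Dmc1, the meiotic cohesin subunit and recombinase, were the other 2 kept genes of a list of 20 germline and meiosis genes (6.59% of all genes were kept as higher). Summed over that list, S3 libraries had 1569.6 and 1569.97 CPM and omission libraries 595 to 1514 CPM. The S3 sums were thus highest, but Stra8 alone supplied 591 and 565 CPM of them. At S2 the sums overlapped, with 1276 and 1317 CPM in the full medium and 608 to 1313 CPM in the omissions.

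The long noncoding RNA Neat1, which builds nuclear paraspeckles, was the only named higher gene past the threshold against each of the 4 omissions. It had 359.9 and 367 CPM in S3, against 136 and 126 CPM without 8Br-cAMP, 167 and 141 CPM without Birabresib, 129 and 114 CPM without CHIR-99021 and 150.4 and 143 CPM without CD1530. Its omission groups lay close to one another and far below S3, with a log2 fold change of 1.40 ± 0.15 (SE) over their mean. The adjacent nuclear RNA Malat1 had 1613 and 1819 CPM in S3 and 964 to 1557 CPM in the omissions, so the groups were separate by a narrow margin. The other 3 higher genes past all 4 thresholds, named after their values were seen, were the pseudogenes Gm4332 and Gm10036 and Cntnap3, a neural adhesion gene with 0.479 CPM in S3 and 0.0424 CPM on average in the omissions.

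The rule named 4 further higher genes. Cd22, an inhibitory receptor best known from B cells, had 31.1 and 29.5 CPM in S3 and 7.62 to 21.5 CPM in the omissions. Slc6a7, a proline transporter, had 18.6 and 17.1 CPM in S3 and 1.14 to 11.3 CPM in the omissions. Gfra3, the artemin receptor, had 13.2 and 12.5 CPM in S3 and 1.54 to 12.4 CPM, so that S3 was just above its nearest omission library. The lowest group lacked CHIR-99021 for Slc6a7 and CD1530 for Gfra3. With that group left out the log2 fold changes were 0.78 for Slc6a7 and 0.81 for Gfra3. Acss1, a mitochondrial acetyl-CoA synthetase, was described above as a gene at the edge of the rule, and its log2 fold change of 1.11 was 0.53 without the CHIR-99021 omission. For Cd22 the value was 1.20, and 0.96 without the CD1530 omission.

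**Figure D1:**
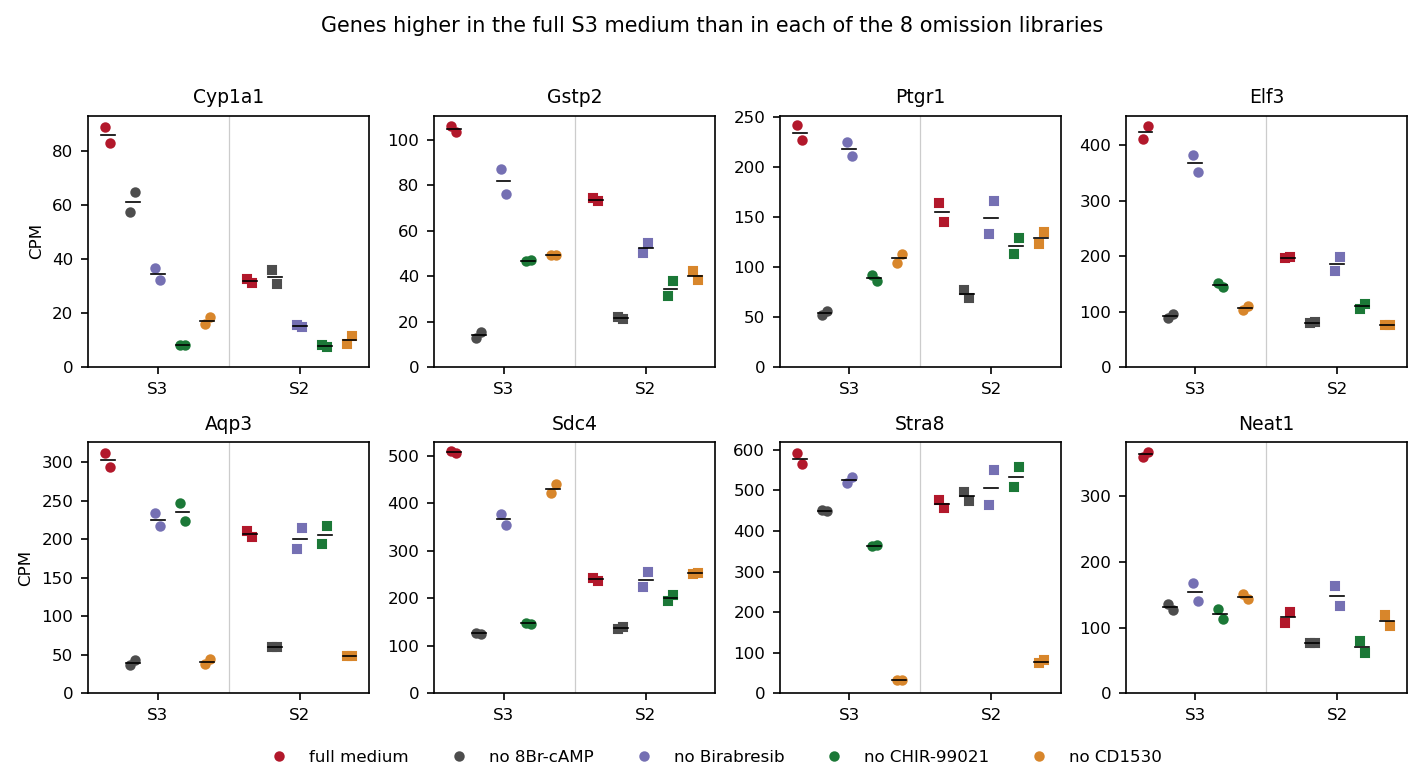
CPM on a linear axis from 0 in each library of 8 genes that the rule kept as higher, with S3 libraries as circles and S2 libraries as squares, and the mean of each pair as a line. In each panel both S3 full-medium libraries lie above all 8 S3 omission libraries, as for Neat1 with 359.9 and 367 CPM, while at S2 the full medium is not always highest.

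Most protein genes encoded in the mitochondrial genome, all of which supply subunits of the respiratory chain or ATP synthase, lay below the omissions. mt-Nd4, a subunit of complex I, had 249 and 208 CPM in S3, against 1897 and 1866 CPM without 8Br-cAMP, 1036 and 2219 CPM without Birabresib, 1303 and 1739 CPM without CHIR-99021 and 2158 and 1965 CPM without CD1530. The S3 pair was far under every omission, and the first library without Birabresib was the lowest of the 8. The log2 fold change was -2.94 ± 0.21 (SE), and -3.07 when that library was left out. mt-Cytb, the cytochrome b of complex III, had 929.6 and 752 CPM in S3 and 2437 to 4461 (median 3640.1) CPM in the omissions. mt-Nd6, which is transcribed from the opposite strand, differed least of the abundant ones: it had 420.3 and 388 CPM in S3 and 443 to 577 CPM in the omissions.

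Of the 13 mitochondrial protein genes 9 were kept as lower and none as higher, and 7 were past the threshold against the mean of the omissions, beside 5.28% of all genes kept as lower and 1.37% past the threshold (the rule used that contrast). The log2 fold changes were -2.62 for mt-Nd2, -1.90 for mt-Nd1, -1.82 for mt-Nd5, -1.46 for mt-Co1 and -1.49 for mt-Atp6. mt-Co1 was the most abundant, with 4764 and 3979 CPM in S3 and 7959 to 16347 CPM in the omissions. mt-Atp6, mt-Atp8, mt-Co2, mt-Co3, mt-Nd3 and mt-Nd4l were listed at under 5 CPM in all 10 libraries, so little can be read from them, and mt-Atp6 was not past the threshold without either S3 library. For mt-Nd4, mt-Nd2, mt-Nd1, mt-Nd5 and mt-Co1 both S3 values were also below all 50 other libraries of the series.

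**Figure D2:**
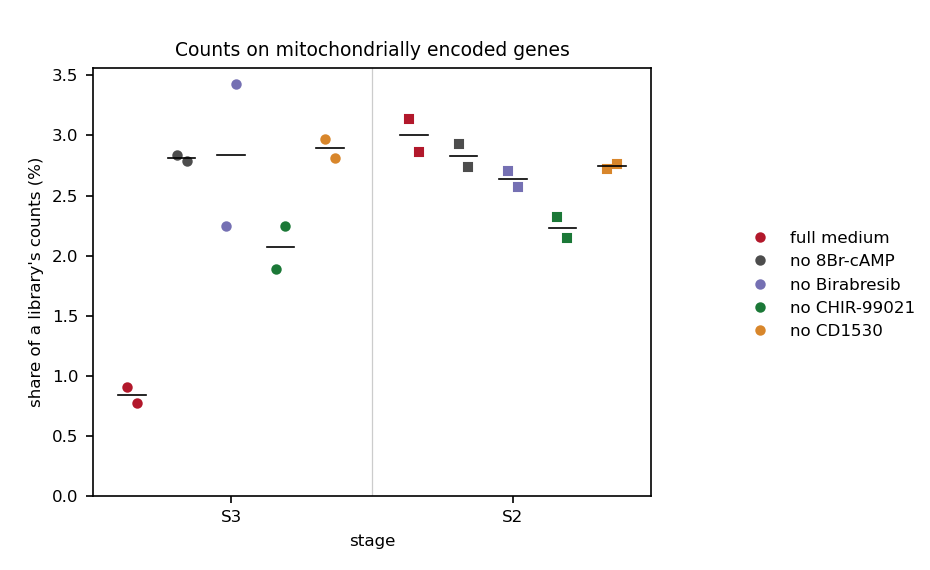
Share of each library's counts on mitochondrially encoded genes, in percent, at S3 (circles) and S2 (squares), with the mean of each pair as a line. The S3 full-medium libraries sit at 0.903% and 0.775%, under every other library shown, and the S2 full-medium libraries sit among the S2 omissions or above them.

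Among the nuclear genes kept as lower, Rpl31, a protein of the large ribosomal subunit, had 185 and 133 CPM in S3, against 537 and 556 CPM without 8Br-cAMP, 339 and 498 CPM without Birabresib, 387 and 426 CPM without CHIR-99021 and 518 and 496 CPM without CD1530. S3 was lowest and the first library without Birabresib came next, apart from its partner. Cox7a2, a subunit of cytochrome c oxidase, had 37.1 and 28.6 CPM in S3 and 57.8 to 106 CPM in the omissions, and Atp5g2, a subunit of the ATP synthase rotor, had 36.7 and 25.0 CPM in S3 and 66.5 to 106 CPM. Ifitm2, an interferon-induced membrane protein, had 6.86 and 5.65 CPM in S3 and 19.05 to 57.8 CPM in the omissions, at a log2 fold change of -2.56 ± 0.17 (SE).

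Also past the threshold against each of the 4 omissions were Tmem258, a subunit of the oligosaccharyltransferase (-1.83 on the log2 scale), Nutf2, the import factor of Ran (-1.60), Ndufb4 of complex I (-1.59), S100a11, a calcium-binding protein (-1.58), Rpl27 (-1.51) and the pseudogene Rpl31-ps8 (-1.88). The first library without Birabresib was the closest to S3 for 18 of the 19 such genes with at least 10 CPM. Of these 19 genes 5 are mitochondrially encoded, and the lengths below cover them too. The 17 protein-coding genes among the 19 had a median transcript length of 971 nt, against 3586 nt over 9451 protein-coding genes at that level, and 9 of the 17 (52.9%) had a processed pseudogene with at least 95% identity over at least 200 nt, against 6.69%. Reads of Rpl31 and its 13 such copies, and of Rpl27 and its 7, could have been split or dropped in counting, so these values are uncertain.

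Other genes of the ribosome and the respiratory chain lay on both sides. Of 32 cytosolic ribosomal protein genes 6 were kept as higher and 9 as lower, and of 31 nuclear genes of oxidative phosphorylation 9 were higher and 5 lower, beside 6.59% higher and 5.28% lower over all genes. Among 9743 genes with at least 10 CPM, 1128 were kept as higher and 919 as lower. Ndufv1, the NADH-binding subunit of complex I, was 0.46 on the log2 scale, and Atp5b, the catalytic beta subunit of ATP synthase, 0.18, whereas Uqcrq of complex III was -0.80. The median log2 fold change was -0.053 over the ribosomal list, -0.017 over the oxidative phosphorylation list and 0.012 over all genes. By length, 290 nuclear protein-coding genes under 1000 nt with at least 10 CPM had 55 kept as higher and 55 as lower (18.97% each), while 3963 genes of 4000 nt or more had 9.34% and 8.53%. The median of the short genes was 0.013 on the log2 scale. Past the threshold against the mean, 11 of the short genes were lower (3.79%) and 4 higher. Of the genes of 4000 nt or more 13 were lower (0.328%) and 10 higher. The S3 libraries themselves differed by length: the median of the first minus the second was 0.15 on the log2 scale for short genes and -0.028 for the longest. The part of length in these results was not tested.

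Slc7a7, a light subunit of the amino acid transporter y+L, had 4.75 and 4.38 CPM in S3, against 8.22 and 6.96 CPM without 8Br-cAMP, 10.3 and 10.5 CPM without Birabresib, 18.5 and 19.9 CPM without CHIR-99021 and 17.7 and 19.4 CPM without CD1530. E2f8, a repressor of the E2F family that restrains S-phase genes, had 4.92 and 5.74 CPM in S3, against 12.6 and 12.9 CPM without 8Br-cAMP, 10.5 and 10.9 CPM without Birabresib, 21.9 and 25.7 CPM without CHIR-99021 and 16.6 and 18.4 CPM without CD1530. For Slc7a7 the groups without CHIR-99021 and without CD1530 were highest, and for E2f8 all 4 omissions were past the threshold.

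Mest, a paternally expressed imprinted gene, had 26.3 and 23.0 CPM in S3, 225 and 236 CPM without CHIR-99021 and 27.2 CPM in the lowest omission library. Its log2 fold change was -1.21, and -0.54 with the CHIR-99021 omission left out. Phlda2, a maternally expressed imprinted gene that restrains placental growth, had 1.07 and 0.916 CPM in S3 and 1.22 to 17.1 CPM in the omissions, at -1.74 on the log2 scale and -0.97 without the CHIR-99021 omission. Lgals1, a galectin, had 46.7 and 40.4 CPM in S3 and 68.8 to 235 CPM in the omissions. Among 23 cholesterol synthesis genes 6 were kept as lower and none as higher, beside 5.28% and 6.59% of all genes, among them Mvd, Nsdhl, Sc5d and Dhcr7, which are enzymes of the pathway, and Srebf2, its transcriptional activator. None of these 6 was past the fold threshold, with log2 fold changes from -0.64 for Nsdhl to -0.19 for Srebf2.

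**Figure D3:**
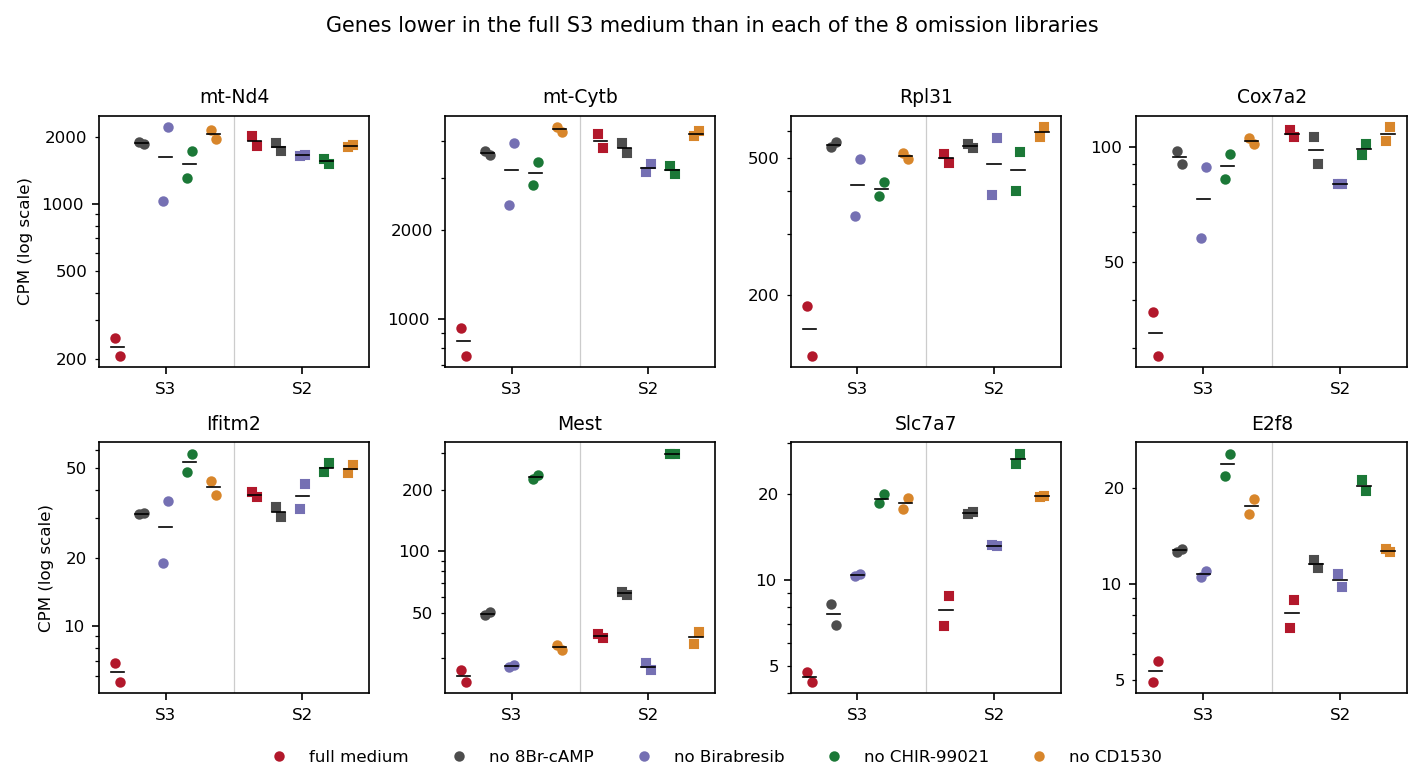
CPM on a log axis in each library of 8 genes that the rule kept as lower, with S3 libraries as circles, S2 libraries as squares and the mean of each pair as a line. At S3 both full-medium libraries are lowest in every panel, and at S2 the full medium is lowest for Slc7a7 and E2f8 but not for mt-Nd4, mt-Cytb, Rpl31, Cox7a2, Ifitm2 and Mest.

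The S2 stage, with the same 5 media in 10 libraries that the rule did not use, gave a test of the kept genes. There 139 genes (0.555%; 64 without the first and 78 without the second S2 library) differed between the full medium and the mean of the 4 omissions, 59 higher (0.235%) and 80 lower (0.319%). Of the 1652 genes higher at S3, 4 were also called higher at S2 (0.242%) and none lower, which is near the 0.235% of all genes. At an adjusted p below 0.05 without the fold threshold, 103 of them (6.23%) were higher at S2, against 2.06% of all genes, and none were lower. Of the 1324 genes lower at S3, 9 (0.680%) were called lower at S2, against 0.319% of all genes. By the adjusted p alone 62 (4.68%) were lower at S2, against 1.34%, and 9 were higher. By the rule itself, applied to S2, 1199 genes (4.79%) lay outside all 8 S2 omissions, 733 above (2.93%) and 466 below (1.86%). Of the genes higher at S3, 165 (9.99%) were above and 11 below, and of the genes lower at S3, 67 (5.06%) were below and 44 above. The median log2 fold change at S2 was 0.082 for the genes higher at S3 and -0.014 for those lower, against 0.014 over all genes. Kept genes had higher levels than most, with a median of 29.6 CPM for higher and 25.7 CPM for lower genes, against 2.03 CPM over all tested genes. Small changes are easier to detect at such levels, and no comparison was made with genes of like level. The larger shares by adjusted p or by the rule may therefore reflect level.

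The 4 genes higher at both stages were Cyp1a1, Gstp2, the predicted transcript Gm44873 and Kif19a, a kinesin of cilia. Cyp1a1 had 32.5 and 31.0 CPM in S2, against 36.0 and 30.6 CPM without 8Br-cAMP, 15.5 and 14.8 CPM without Birabresib, 8.17 and 7.25 CPM without CHIR-99021 and 8.58 and 11.4 CPM without CD1530. The log2 fold change was 1.18 ± 0.18 (SE, adjusted p 4.3e-05, edgeR), although S2 did not exceed the group without 8Br-cAMP. Gstp2 had 74.4 and 72.9 CPM in S2 and 21.2 to 54.7 CPM in the S2 omissions, with no overlap, at 1.06 ± 0.12 (adjusted p 1.4e-07, edgeR). Gm44873 and Kif19a had log2 fold changes of 1.16 (adjusted p 0.0131, edgeR) and 1.85 (adjusted p 0.00613, edgeR).

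Several other named genes were higher at S2 by less than the fold threshold. Elf3 had 196 and 198 CPM in S2, against 78.7 and 81.3 CPM without 8Br-cAMP, 174 and 199 CPM without Birabresib, 105 and 114 CPM without CHIR-99021 and 75.4 and 76.6 CPM without CD1530, a log2 fold change of 0.90 ± 0.07 (adjusted p 4.4e-10, edgeR). Aqp3 had 210.1 and 203 CPM in S2 and 47.9 to 217 CPM in the omissions (0.98 ± 0.14, adjusted p 8.3e-06, edgeR). S2 overlapped the group without Birabresib in Elf3 and, in Aqp3, the groups without Birabresib and without CHIR-99021. Stra8 was at 0.55 ± 0.094 (adjusted p 2.3e-04, edgeR), Cd22 at 0.90 ± 0.19 (adjusted p 0.00324, edgeR) and Ptgr1 at 0.44 ± 0.078 (adjusted p 4.1e-04, edgeR). The adjusted p (edgeR) of Cd22 was 0.063 without the first and 0.11 without the second S2 library, and that of Ptgr1 was 0.10 without the first. Neat1 did not pass, with 107 and 124 CPM in S2 and 61.6 to 163 CPM in the omissions (0.25 ± 0.16, adjusted p 0.53, edgeR), nor did Slc6a7 and Gfra3, at 0.36 (adjusted p 0.43, edgeR) and 0.48 (adjusted p 0.35, edgeR).

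Among the lower genes, Slc7a7 had 6.90 and 8.78 CPM in S2, against 17.0 and 17.3 CPM without 8Br-cAMP, 13.2 and 13.1 CPM without Birabresib, 25.4 and 27.7 CPM without CHIR-99021 and 19.5 and 19.7 CPM without CD1530. All 8 omission libraries were above S2, at a log2 fold change of -1.24 ± 0.093 (adjusted p 2.4e-11, edgeR). E2f8 had 7.27 and 8.91 CPM in S2 and 9.79 to 21.2 CPM in the omissions, at -0.71 ± 0.14 (adjusted p 9.7e-04, edgeR), but the adjusted p was 0.17 without the first S2 library. Mest was at -0.78 ± 0.12 (adjusted p 3.2e-05, edgeR). Lefty1, an antagonist of Nodal that the rule also kept as lower, was at -1.16 ± 0.17 (adjusted p 2.7e-05, edgeR). The 9 genes called lower at both stages also included Bnc2, Ccdc194, Ccdc3, Hrc and Rasgrp2, named after values were seen.

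mt-Nd4, Rpl31, Cox7a2 and Ifitm2 did not pass at S2. mt-Nd4 had 2032 and 1818 CPM in S2, against 1889.7 and 1734 CPM without 8Br-cAMP, 1644 and 1668 CPM without Birabresib, 1601 and 1513 CPM without CHIR-99021 and 1809.5 and 1844 CPM without CD1530, at 0.17 ± 0.17 (adjusted p 0.74, edgeR). None of the 13 mitochondrial genes was called at S2, and their median log2 fold change there was 0.17. Rpl31 was at -0.054 ± 0.16 (adjusted p 0.98, edgeR), Cox7a2 at 0.18 ± 0.13 (adjusted p 0.6, edgeR) and Ifitm2 at -0.12 ± 0.14 (adjusted p 0.8, edgeR). The 9 genes that were lower at S3 but higher at S2 by the adjusted p included Dhcr7 at 0.52 ± 0.078 (adjusted p 3.4e-05, edgeR), Scd1, the stearoyl-CoA desaturase, at 0.38 ± 0.078 (adjusted p 0.0022, edgeR) and Fads1, a desaturase of polyunsaturated fatty acids, at 0.26 ± 0.064 (adjusted p 0.0126, edgeR). These 3 lipid synthesis genes were picked after their values were seen.

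**Figure D4:**
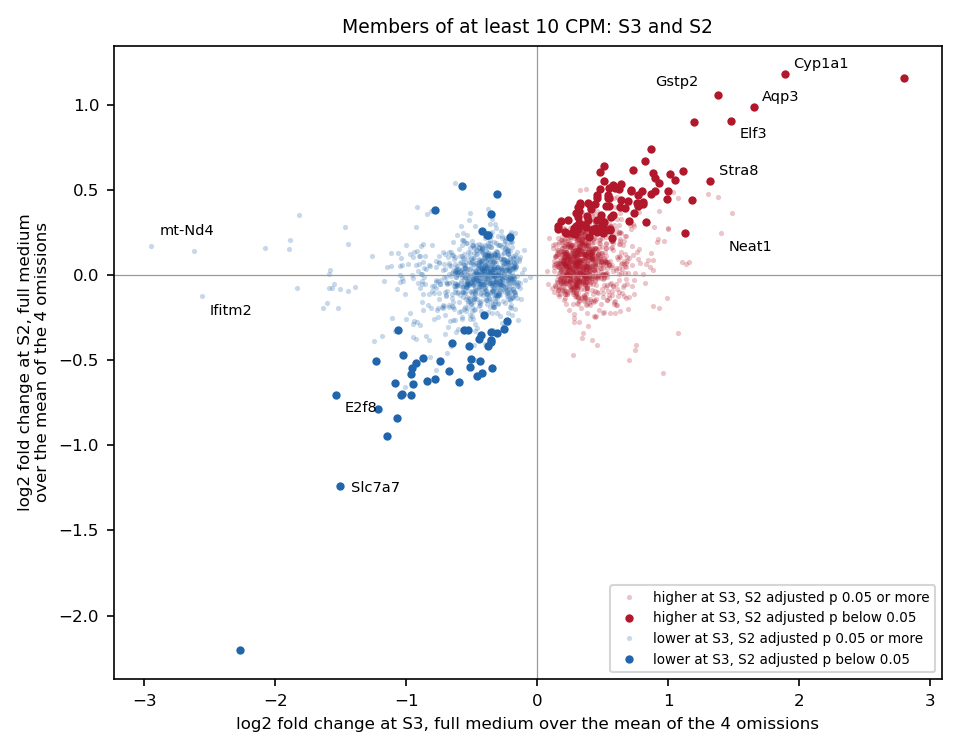
Log2 fold change of the full medium over the mean of the 4 omissions at S3 (horizontal) and at S2 (vertical) for kept genes of at least 10 CPM, with red for higher and blue for lower at S3 and large points for an adjusted p below 0.05 at S2. Cyp1a1 and Gstp2 lie in the upper right and Slc7a7 in the lower left, while mt-Nd4 and Ifitm2 lie far to the left near 0 at S2.

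Of 40 gene lists, 39 had tested genes, and 51 of their 746 genes differed at S3, 16 higher and 35 lower, beside 2.65% of all genes (1.28% higher and 1.37% lower). Several were not kept by the rule. The Wnt targets Axin2, Sp5 and Rnf43 were called higher, but Axin2 had 467 and 439 CPM in S3, 14.5 and 15.3 CPM without CHIR-99021 and 741 and 752 CPM without 8Br-cAMP. Against single omissions, S3 was higher at 13 of the 20 Wnt targets without CHIR-99021 (4.11% of all genes) and lower at 8 without 8Br-cAMP (2.83%). With the CHIR-99021 omission left out, the log2 fold changes of Axin2, Sp5 and Rnf43 turned to -0.29, -0.017 and -0.44. Evx1 and Fgf8, genes of the primitive streak, turned in the same way, to -0.66 and -0.22.

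None of the 26 tested 2C-like totipotency genes was kept, and 5 were called lower against the mean of the omissions (1.37% of all genes). S3 was lower at 25 of them than the group without Birabresib (5.75% of all genes) and at 12 than the group without CHIR-99021 (5.04%), and higher at 11 than the group without CD1530 (3.82%). Zscan4d, from a gene cluster of the 2-cell embryo, had 2.46 and 2.37 CPM in S3, against 5.05 and 3.83 CPM without 8Br-cAMP, 18.1 and 21.2 CPM without Birabresib, 5.99 and 6.02 CPM without CHIR-99021 and 1.35 and 1.19 CPM without CD1530, and S3 lay between the omissions. With the Birabresib omission left out of the mean, the log2 fold change of Zscan4d was -0.43. Zscan4 copies are near-identical, so counting could have split their reads. In the retinoic acid list S3 was higher at 15 of 24 genes than without CD1530 (3.82% of all genes) and lower at 10 than without CHIR-99021 (5.04%). Cyp26a1, the enzyme that degrades retinoic acid, had 12.6 and 10.5 CPM in S3, 1.86 and 1.98 CPM without CD1530 and 67.6 and 70.0 CPM without CHIR-99021.

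Of 21 BMP, Activin and Nodal targets 1 was called higher at S3 (Msx1) and 4 lower (among them Lefty1, Lefty2 and Tdgf1), beside 1.28% and 1.37% of all genes, with a median log2 fold change of -0.43. At S2 none was higher and 4 were lower, beside 0.235% and 0.319%, with a median of -0.51. Of these S3 calls 3 were lost with single omissions left out of the mean: Lefty2 was at -0.64 without the Birabresib and -0.78 without the CD1530 omission, and Msx1 at 0.14 without the CHIR-99021 and 0.80 without the CD1530 omission. Tdgf1 was at -0.98, -0.59 and -0.84 without the Birabresib, CHIR-99021 and CD1530 omission. Lefty2 had 7.10 and 7.03 CPM in S3 and 3.58 to 32.6 CPM in the omissions, the lowest of which lacked 8Br-cAMP. The imprinted genes H19, Mest, Cdkn1c and Phlda2 were called lower out of 20, and Cdkn1c was at -0.54 without the CHIR-99021 omission. Of 19 immediate early genes Fos and Fosb were called higher (1.28% of all genes). Fos had 34.3 and 32.7 CPM in S3 and 6.65 to 37.8 CPM in the omissions. The rule kept Ier2, Ier5 and Klf10 as higher and none as lower, beside 6.59% and 5.28% of all genes. Among 9743 genes with at least 10 CPM, 1128 were kept as higher. Fos was at 0.76 without the CHIR-99021 omission, and Fosb was not called without either S3 library or by DESeq2 (adjusted p 0.051). At S2 none of the 19 was called higher and 2 were called lower (0.319% of all genes).

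**Figure D5:**
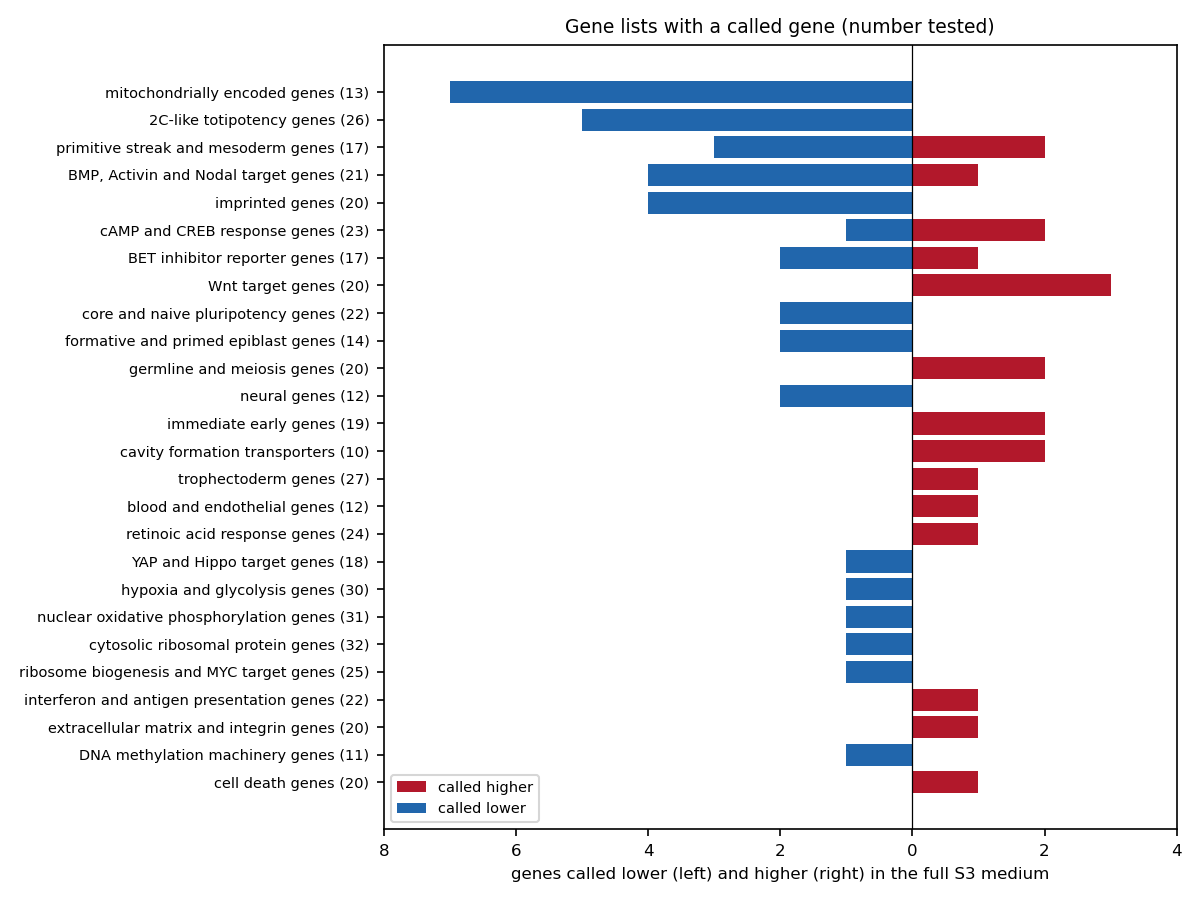
Number of genes called lower (left, blue) and higher (right, red) in S3 against the mean of the 4 omissions in each list with a called gene, with the number of tested genes in brackets. The mitochondrially encoded list has 7 lower genes of 13, and the Wnt target list has 3 higher genes of 20.

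Markers of lineages were mostly between the omissions. Cdx2, a trophectoderm factor, had 20.04 and 17.1 CPM in S3 and 2.01 to 104 CPM in the omissions, Gata6 of the primitive endoderm 41.7 and 45.9 CPM in S3 and 7.54 to 87.7 CPM, and Krt8 of simple epithelia 210.1 and 194 CPM in S3 and 53.5 to 612 CPM. Of 27 trophectoderm genes only Aqp3 was called and of 30 primitive and visceral endoderm genes none, beside 2.65% of all genes. Single omissions gave more calls. Without 8Br-cAMP S3 was higher at 10 trophectoderm and 15 endoderm genes (3.8% of all genes) and lower at 1 of each (2.83%). Without CHIR-99021 it was lower at 10 and 20 (5.04%) and higher at 1 and 2 (4.11%). Without Birabresib it was lower at 6 and 5 (5.75%) and higher at none (0.459%). Without CD1530 it was lower at 7 and 2 (1.97%) and higher at 1 and 0 (3.82%). Left-out omissions brought several fixed markers past the threshold. Cdx2 was at -1.14 without the CHIR-99021 omission. Without the 8Br-cAMP omission Krt8 was at -1.25, the trophectoderm gene Gata3 at -1.13 and Gata4 of the primitive endoderm at -1.12. The primitive streak gene T ran down to -1.78 over the alternatives. Summed over 18 feeder fibroblast genes S3 had 3218 and 3372 CPM and the omissions 2851 to 3947 CPM. Over 12 blood and endothelial genes S3 had 95.3 and 97.0 CPM and the omissions 75.6 to 167 CPM, and over 12 neural genes S3 had 79.6 and 80.8 CPM and the omissions 66.2 to 139 CPM. The S3 sums thus lay inside the omission ranges. Fap and S100a4 of the fibroblast list had no count in S3. In bulk aggregates a lower share of a cell type and less RNA per cell cannot be told apart.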

How the data were processed

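Poly(A) RNA was sequenced as paired reads, per the labels' protocols. The submitters' processing notes name Trimmomatic 0.39, STAR 2.7.10b, featureCounts 2.0.6 and the build mm10. The authors deposited raw counts per gene. Annotation, strand setting and pair handling: not given in the sources used here. Overlapping genes therefore cannot be told apart. Of the counts from 1 to 10, 73.6% and 71.9% were even in S3 and 69.8% to 71.9% in the omissions. Over all 52 libraries, which share the model below, the even share ran from 40.7% to 80.5%. Why it differs was not tested. With only the S2-stage and S3-stage libraries fitted, 646 genes differed between S3 and the mean of the omissions, against 664. Library totals ran from 16.6 to 108 M.

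Genes were kept with filterByExpr and scaled with TMM factors, and 1 quasi-likelihood model with 26 groups was fitted to all 52 libraries (edgeR 4.0.16, limma 3.58.1, R 4.3.3). P-values were adjusted by Benjamini-Hochberg over 25056 genes. Called genes had an adjusted p below 0.05 with a log2 fold change of 1 or more in either direction, and the SE was the log2 fold change divided by the square root of F. For gaps and correlations, log2 CPM were computed after adding a prior count of 2. Gaps of genes with no count in a group depend on that prior. Log2 fold changes came from the fitted model without it, and are uncertain for such genes.

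Kept genes and gene lists were chosen with earlier results of these data known. Genes were named by rule: kept and called genes past the threshold in each omission with at least 10 CPM and no predicted name (up to 15 per direction, filled to 10), up to 3 called genes per list by adjusted p, fixed markers, and genes at the edge of the rule. Not all are described, and some results are not reported here. Symbols were matched to GENCODE M21 (24357 of 25056). Copies were found with blastn 2.17.0. Data were simulated for S3 against the mean of the omissions, over 24609 genes. Called were 24 of 50 genes at a true fold of 2, 50 of 50 at 4, 23 of 50 at 0.5 and 49 of 50 at 0.25. True folds of 2 and 0.5 lie on the fold threshold itself, so their shares do not measure power. Of 24409 unchanged genes 4 were called. These had a common mean in S3 and all omissions, unlike the data, so that figure holds for that setting only.

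Alternatives were RLE size factors, no filter, DESeq2 1.42.0, fewer libraries, a replicate block, halved counts, library totals, wider gaps, each library left out, and, added after the data were seen, means of 3 omissions and leaving out genes with near copies. One list, of histone genes, had no tested symbol.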

Additional observations from a re-analysis of the deposited data

Results flagged for a closer look

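The effect of the full medium differed between the stages for 2 fixed markers of the 2-cell state that the rule had not kept. For Zscan4d the log2 effect at S3 minus that at S2 was -1.35 ± 0.21 (SE, adjusted p 9.9e-05, edgeR), from -1.08 at S3 and 0.28 at S2. For Zfp352 the difference was -1.52 ± 0.37 (SE, adjusted p 0.0109, edgeR), from -1.14 at S3 and 0.37 at S2. Zscan4d had 2.46 and 2.37 CPM in S3 and 1.19 to 21.2 CPM in the S3 omissions, and 24.8 and 29.8 CPM in S2 and 15.4 to 40.7 CPM in the S2 omissions. With the Birabresib omission left out, the S3 effects were -0.43 for Zscan4d and -0.53 for Zfp352.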

How the results depend on the processing

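The count for S3 against the mean of the omissions, 664, stayed within 1.5 times under RLE factors, no filter, DESeq2, fewer libraries, halved counts, without genes with near copies (565) and without the 8Br-cAMP, CHIR-99021 or CD1530 omission in the mean. It moved to 1083 without the Birabresib omission. Left-out libraries gave 376 to 662 genes there, 1033 to 1287 for S3 against S3 without Birabresib, 64 to 137 at S2 and 109 to 301 for the difference between the stages. The rule kept 3154 to 5753 genes with a library left out and 5267 without the Birabresib omission. It kept 192 with a gap of at least 0.5 and 23 with a gap of at least 1 on the log2 scale. Leaving out libraries can only add genes to those kept and asking for a gap can only remove them, so these directions were fixed in advance. Log2 fold changes past the threshold reversed for Aqp8 (-0.53) without the 8Br-cAMP omission, and for Axin2 (-0.29), Evx1 (-0.66), Fgf8 (-0.22), Rnf43 (-0.44) and Sp5 (-0.017) without the CHIR-99021 omission, the group that was left out of those means. Values under the threshold turned sign as well, among them Otx2 to -0.54 and Gata6 to -0.48 without the 8Br-cAMP omission, Cyp26a1 to 0.70 and Gata4 to 0.25 without the CHIR-99021 omission, and T to 0.74 without the CD1530 omission. The causes of the other moves were not tested. Of 3182 checks of 158 named-gene results 3080 stayed on the same side of the threshold, whether or not a value under it turned sign. No replicate effect shared between groups was seen at S3, where correlations of replicate differences over 10 pairs of groups ran from -0.017 to 0.0099. Over 45 pairs of S2-stage and S3-stage groups they ran from -0.059 to 0.125. Such values cannot tell whether libraries of the same number were handled together. With a replicate block the counts were 628 at S3 and 153 at S2. The 2 libraries of each group and 34.8 to 57.9 M counts limit what can be seen at low CPM.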
